A study of Homo sapiens with 12 samples.

Results

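Metallothioneins and the genes of cellular zinc sensing were followed in A549 cells treated with AA. They are 8 genes picked by name out of the 20323 in the deposited tables: the metallothioneins MT1E, MT1F, MT1G, MT1X and MT2A, the zinc-sensing transcription factor MTF1, the zinc exporter SLC30A1 and the zinc importer SLC39A10. Each symbol stood at 1 identifier. A549 is a human lung adenocarcinoma line, widely described as lacking functional LKB1, the kinase that STK11 encodes. RNA was sequenced from 4 groups of 3 libraries: LKB1-deficient cells under AA, LKB1-deficient cells under phosphate-buffered saline (PBS), LKB1-intact cells under AA and LKB1-intact cells under PBS. The titles call AA vitamin C and the deficient cells con, and the genotype label of the intact cells is wild type. How the 2 kinds of cell were made, the dose and the exposure time are not stated, and no label ties the 3 libraries of a group to separate cultures, and a p-value here speaks of the spread between libraries, which may be technical.

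Metallothioneins are small cysteine-rich proteins that bind zinc and copper and buffer them in the cytosol. MTF1 senses free zinc through its zinc fingers and binds metal response elements, short promoter motifs, in metallothionein genes and in SLC30A1, which it activates. SLC30A1 (ZnT1) pumps zinc out through the plasma membrane. SLC39A10 (ZIP10) brings zinc in, and in mouse and zebrafish MTF1 represses its gene.

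The promoters are shown because MTF1 binds such elements there. RefSeq windows on GRCh38.p14 run from 250 bases before to 50 bases after a gene's start in RefSeq, and 5 of the 8 genes had one. These starts are not those of the GENCODE positions given further on. The MT2A window and both SLC39A10 windows lie wholly inside the positions given there, and the SLC30A1 window wholly outside them. The matches therefore do not describe the GENCODE starts. The core of the element was searched as TGCACNC and TGCGCNC on both strands. Matches are in capitals, and no pair of them overlapped within a window. The MT2A window is chr16:56608334-56608633 on the plus strand, the MT1X window chr16:56682220-56682519 on the plus strand, the SLC30A1 window chr1:211579112-211579411 on the minus strand, and the second of the SLC39A10 windows chr2:195656976-195657275 on the plus strand.
MT2A: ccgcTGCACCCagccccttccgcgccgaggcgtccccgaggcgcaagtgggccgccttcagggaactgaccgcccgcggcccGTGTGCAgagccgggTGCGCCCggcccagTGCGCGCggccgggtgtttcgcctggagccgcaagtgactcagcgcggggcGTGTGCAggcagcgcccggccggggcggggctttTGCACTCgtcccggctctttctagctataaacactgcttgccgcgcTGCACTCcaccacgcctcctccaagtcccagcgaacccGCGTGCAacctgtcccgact
MT1X: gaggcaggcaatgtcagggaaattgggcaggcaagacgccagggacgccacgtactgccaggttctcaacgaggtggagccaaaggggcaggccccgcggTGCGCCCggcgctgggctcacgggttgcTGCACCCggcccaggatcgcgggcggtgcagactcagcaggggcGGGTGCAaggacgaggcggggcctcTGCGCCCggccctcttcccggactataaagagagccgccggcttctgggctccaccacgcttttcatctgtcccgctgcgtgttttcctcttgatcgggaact
SLC30A1: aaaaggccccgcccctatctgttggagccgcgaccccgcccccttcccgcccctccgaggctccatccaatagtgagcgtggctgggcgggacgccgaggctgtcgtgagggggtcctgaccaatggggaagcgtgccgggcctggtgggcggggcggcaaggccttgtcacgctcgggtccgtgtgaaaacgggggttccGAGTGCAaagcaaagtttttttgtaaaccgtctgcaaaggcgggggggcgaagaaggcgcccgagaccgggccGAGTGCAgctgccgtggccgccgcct
SLC39A10: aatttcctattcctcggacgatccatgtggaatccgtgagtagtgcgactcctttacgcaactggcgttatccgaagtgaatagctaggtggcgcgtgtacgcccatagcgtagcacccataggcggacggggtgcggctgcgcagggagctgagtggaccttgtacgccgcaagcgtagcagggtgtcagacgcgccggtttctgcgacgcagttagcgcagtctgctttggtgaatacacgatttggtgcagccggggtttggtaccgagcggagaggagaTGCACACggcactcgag

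MT2A held 8 matches, 5 on the plus strand and 3 on the minus strand. MT1X held 4 and SLC30A1 held 2. The printed SLC39A10 window held 1, while its first window and the MTF1 window held 0. Among 35116 windows of the same length, 29.6% held at least 1 match, 8.6% at least 2, 0.601% at least 4 and 0.0199% at least 8. A match describes these letters and is not a site of binding. MT1E, MT1F and MT1G had no entry.

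The 5 metallothionein genes lie within 76.0 kb of chromosome 16 in the GRCh38 annotation of GENCODE release 29, where all 8 genes are protein-coding. MT2A (ENSG00000125148) runs from 56608199 to 56609497 and MT1E (ENSG00000169715) from 56625475 to 56627112, both on the plus strand. MT1F (ENSG00000198417) runs from 56657694 to 56660698 on the plus strand, MT1G (ENSG00000125144) from 56666731 to 56668065 on the minus strand, and MT1X (ENSG00000187193) from 56682424 to 56684196 on the plus strand. MTF1 (ENSG00000188786; 37809567 to 37859620) and SLC30A1 (ENSG00000170385; 211571568 to 211578742) are on the minus strand of chromosome 1. SLC39A10 (ENSG00000196950; 195575977 to 195737702) is on the plus strand of chromosome 2. Metallothionein copies can share reads. Stretches of 50 bases in the longest protein-coding transcript of each gene were sought in transcripts of the 20 other metallothionein genes and pseudogenes. Of these stretches 14.3% for MT1G, 10.6% for MT1E, 4.9% for MT2A and 3.6% for MT1F were found there, and 0 of 489 for MT1X. Other transcripts of MT1X did share stretches with MT1F, MT1G and MT2A. How reads were assigned was not measured, so these shares do not give the size of the uncertainty in single metallothioneins. MT1X also overlaps a noncoding transcript on its own strand.

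Estimated counts summed to 16055534 to 20306129 per library, so a count of 3 corresponds to 0.148 to 0.187 CPM (counts scaled by library size). STK11 checks the labels: it lay at 4.86 to 7.34 CPM in the deficient libraries and at 23.6 to 28.2 CPM in the intact libraries (log2 -1.98 under AA and -2.08 under PBS, edgeR adjusted p = 5.29e-13 and 1.48e-10). Of 6 epithelial markers 5 passed the low-count filter, with CDH1 low at group means of 1.17 to 1.61 CPM. KRT19, at 0.102 to 0.29 CPM, did not. The summed level of the 6 was 2524.7 to 2603.4 CPM in deficient AA, 2487.9 to 2731.6 CPM in deficient PBS, 3895.7 to 4042.9 CPM in intact AA and 2784.9 to 2889.5 CPM in intact PBS libraries. Nearly all of it was KRT7, KRT8 and KRT18. In deficient cells KRT8 was lower under AA than under PBS (771.2 against 1270.2 CPM), and KRT7 (779.6 against 597.7 CPM) and KRT18 (1001.2 against 742.4 CPM) were higher. In intact cells KRT8 (1947.1 against 1420.3 CPM) and KRT18 (1420.9 against 769.3 CPM) were higher under AA, and KRT7 (567.2 against 632.9 CPM) was lower. Of the blood-cell markers CD3E was at 0 in every library, and of the fibroblast markers COL1A2 was. The fibroblast marker COL1A1 stood at group means of 11.3 to 14.0 CPM, above CDH1 in every group. The endothelial marker CDH5 stood at 1.04 to 9.68 CPM, above CDH1 in every group except deficient AA. Summed levels were at most 10.7 CPM for endothelial and at most 17.0 CPM for fibroblast markers, and 83.2 to 110.7 CPM for blood-cell markers, of which CD68, a lysosomal protein, passed the filter.

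Levels between genes are compared in FPKM, the authors' values per transcript length and depth. MT2A was the highest of the 8 genes in every group, at 267.8 ± 6.22 FPKM in deficient AA, 233.8 ± 9.06 FPKM in deficient PBS, 196.8 ± 14.5 FPKM in intact AA and 219.4 ± 4.49 FPKM in intact PBS cells (SD, n = 3 each, as for all levels here). MT1E followed at 100.3 ± 3.38, 62.1 ± 4.27, 78.4 ± 3.48 and 65.9 ± 3.81 FPKM in the same 4 groups. The order then ran SLC30A1, SLC39A10, MT1X, MTF1, MT1F and MT1G, the same in all 4 groups. Under PBS in intact cells SLC30A1 stood at 31.3 ± 0.775 FPKM, SLC39A10 at 19.7 ± 0.795 FPKM, MT1X at 5.94 ± 1.91 FPKM and MTF1 at 3.18 ± 0.292 FPKM. Neighbours in this order did not overlap in any group except MT1F and MT1G under PBS.

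MT1F and MT1G were at or near the detection limit. MT1F had estimated counts of 5, 2 and 5 in deficient AA, 1, 4 and 0 in deficient PBS, 12, 6 and 4 in intact AA and 1, 0 and 1 in intact PBS libraries. The intact AA libraries lie above the intact PBS ones, but most of these counts are within a few reads of the floor, and the gene was not tested. MT1G had a count of 0 in all 12 libraries, which allows up to 3 counts in each. The other 7 metallothionein genes listed (MT1A, MT1B, MT1H, MT1HL1, MT1M, MT3 and MT4) also had 0 counts in all 12 libraries. The metallothionein RNA detected was therefore almost wholly MT2A and MT1E, and 6 of the 8 genes passed the low-count filter and were tested.

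MT1E, an inducible metallothionein, rose under AA in both genotypes, and rose more in deficient cells, but the direction in intact cells turned once a trend with gene length was removed. It had 66.8, 65.2 and 70.5 CPM in deficient AA, against 41.5, 46.6 and 41.3 CPM in deficient PBS libraries. The intact libraries had 56.5, 51.4 and 54.0 CPM under AA, against 44.7, 46.9 and 43.8 CPM under PBS. AA and PBS libraries did not overlap in either genotype. The log2 change was 0.65 (SE 0.0559, edgeR adjusted p = 7.98e-10), or 1.57-fold, in deficient cells and 0.26 (SE 0.0566, adjusted p = 0.000381), or 1.2-fold, in intact cells. The difference between these changes was 0.39 (95% interval 0.22 to 0.55, adjusted p = 0.000406). With the length trend removed (an alternative given further on with the gene lengths), MT1E was 0.22 (adjusted p = 0.00524) in deficient cells and a called fall of -0.16 (adjusted p = 0.0352) in intact cells.

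MT2A, the main metallothionein of human cells, moved in opposite directions by small amounts, and its rise in deficient cells turned to a fall with the length trend removed. It had 103.9, 106.9 and 102.0 CPM in deficient AA, against 93.7, 99.1 and 91.6 CPM in deficient PBS libraries. Intact libraries had 85.3, 73.4 and 80.4 CPM under AA, against 88.2, 91.3 and 87.8 CPM under PBS. The groups did not overlap in either genotype. In deficient cells the log2 change was 0.14 (SE 0.047, edgeR adjusted p = 0.0123), in intact cells -0.16 (SE 0.0483, adjusted p = 0.00552), and their difference 0.30 (95% interval 0.16 to 0.44, adjusted p = 0.00103). The change in deficient cells was no longer called without deficient AA replicate 2 (log2 0.12, adjusted p = 0.0533) or deficient PBS replicate 3 (0.11, adjusted p = 0.0649), and that in intact cells without intact AA replicate 2 (-0.11, adjusted p = 0.0501) or with upper-quartile factors (-0.1, adjusted p = 0.0782). Over all alternatives the adjusted p ran from 5.72e-05 to 0.0649 in deficient cells, where the lowest belongs to the reversed value of -0.33 with the length trend removed. It ran from 5.73e-10 to 0.0782 in intact cells, the lowest again with that trend removed (-0.74), and from 5.53e-05 to 0.0047 for the difference.

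MT1X was low, and its libraries overlapped between groups. It had 2.11, 2.68 and 1.89 CPM in deficient AA and 2.57, 3.04 and 3.01 CPM in deficient PBS libraries. In intact cells it had 4.2, 2.28 and 3.83 CPM under AA and 3.33, 1.95 and 2.02 CPM under PBS. The log2 difference was -0.37 (95% interval -0.92 to 0.18, adjusted p = 0.21) in deficient and 0.51 (-0.02 to 1.04, adjusted p = 0.0826) in intact cells, by edgeR. Leaving out intact AA replicate 2 or intact PBS replicate 1 brought the value in intact cells to 0.73 and 0.79 (adjusted p = 0.0144 and 0.0168, in a range of 0.0144 to 0.809 over the alternatives). The difference between the changes, -0.88 (95% interval -1.65 to -0.11), missed the threshold at an adjusted p of 0.0576 and passed it under 5 of 24 alternatives, among them leaving out deficient AA replicate 2 (-1.03), intact AA replicate 2 (-1.1) or intact PBS replicate 1 (-1.16).

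**Figure D1:**
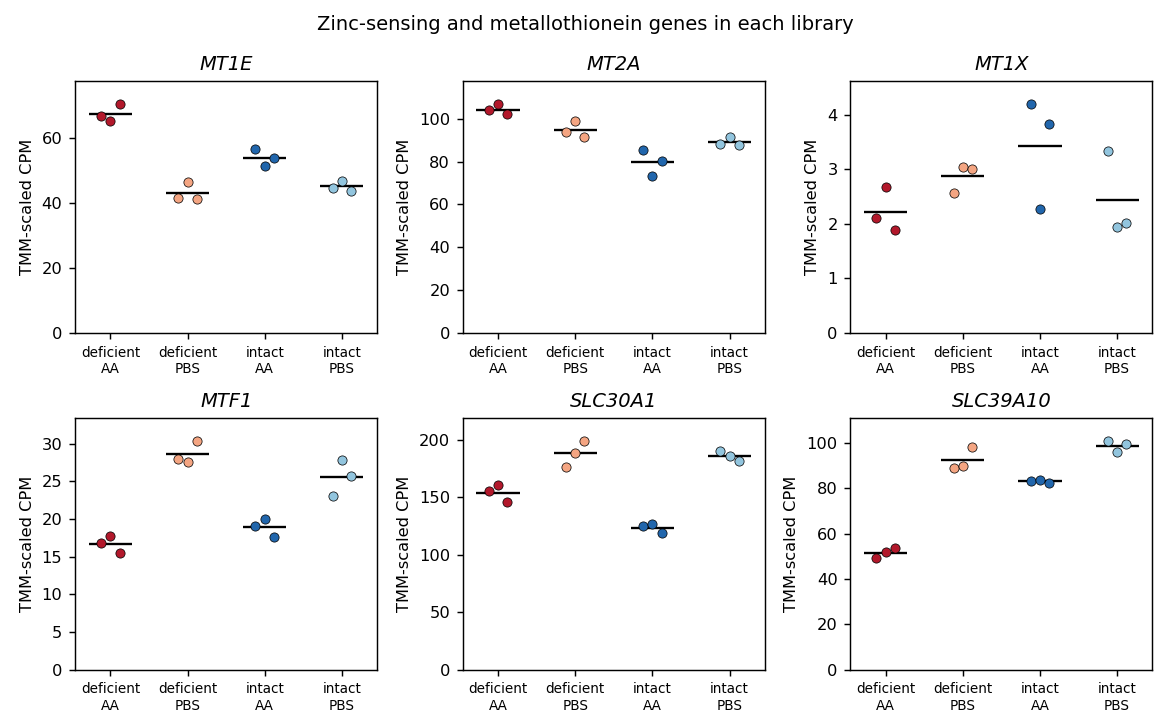
Level of each of the 6 tested genes in each library, in TMM-scaled CPM. Points are libraries, lines group means, with 3 libraries per group. MT1E is highest in deficient AA libraries (65.2 to 70.5 CPM), SLC39A10 is lowest there (49.3 to 53.4 CPM), and SLC30A1 is lowest in intact AA libraries (118.8 to 126.7 CPM).

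Summed over the 5 metallothioneins, the level was 173.1, 174.9 and 174.6 CPM in deficient AA and 137.8, 149.0 and 135.9 CPM in deficient PBS libraries. In intact cells the sum was 146.6, 127.4 and 138.4 CPM under AA and 136.2, 140.1 and 133.7 CPM under PBS. The deficient AA libraries stood above all others, while in intact cells AA and PBS libraries overlapped. This sum was not formed with the length trend removed. There MT2A, its larger part, was at -0.33 in deficient and -0.74 in intact cells, and MT1E at 0.22 and -0.16, so a rise of the sum in deficient cells is not established. MT2A made up 59.9% of the summed CPM in deficient AA, 67.3% in deficient PBS, 58.0% in intact AA and 65.2% in intact PBS cells. The ratio of MT1E to MT2A within a library, which no scaling between libraries touches, was 0.644, 0.61 and 0.691 in deficient AA, against 0.443, 0.471 and 0.45 in deficient PBS. The intact libraries gave 0.663, 0.699 and 0.672 under AA, against 0.507, 0.513 and 0.499 under PBS. All 6 AA libraries lay above all 6 PBS libraries in this ratio. It is given as a description with no test.

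MTF1, the zinc sensor, fell under AA in both genotypes. It had 16.8, 17.8 and 15.5 CPM in deficient AA, against 27.9, 27.5 and 30.4 CPM in deficient PBS libraries. In intact cells it had 19.1, 20.0 and 17.6 CPM under AA, against 23.1, 27.8 and 25.7 CPM under PBS. No AA library reached a PBS library of its genotype. It fell by 0.78 on the log2 scale in deficient cells (SE 0.0814, edgeR adjusted p = 1.74e-08) and by 0.44 in intact cells (SE 0.081, adjusted p = 5.78e-05). After removal of that trend with length the fall was 0.27 in deficient cells (adjusted p = 0.00365), and in intact cells the value of -0.04 was not called (adjusted p = 0.667). Their difference, -0.34 (95% interval -0.58 to -0.1), had an adjusted p of 0.0212 and was called under 15 of 24 alternatives, with adjusted p from 0.00923 to 0.199. It was lost when deficient AA replicate 3 (adjusted p = 0.063), deficient PBS replicate 3 (0.0579), intact AA replicate 2 (0.0562) or intact PBS replicate 1 (0.0643) was left out.

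SLC30A1, the exporter, fell under AA in both genotypes, and fell more in intact cells. It had 155.5, 160.9 and 146.5 CPM in deficient AA, against 176.6, 189.0 and 199.5 CPM in deficient PBS libraries. Among intact libraries it had 124.9, 126.7 and 118.8 CPM under AA, against 190.9, 186.2 and 182.0 CPM under PBS. AA and PBS libraries did not overlap. On the log2 scale it fell by 0.29 in deficient cells (SE 0.0432, edgeR adjusted p = 3.52e-06) and by 0.59 in intact cells (SE 0.044, adjusted p = 1.09e-10), and the difference was 0.31 (95% interval 0.18 to 0.43, adjusted p = 0.000338). Removal of the length trend left SLC30A1 called up in deficient cells (0.09, adjusted p = 0.0322) and down in intact cells (-0.30, adjusted p = 3.66e-07).

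SLC39A10, the importer, had the reverse order: it fell in both genotypes, and fell more in deficient cells. It had 49.3, 51.8 and 53.4 CPM in deficient AA, against 88.7, 89.7 and 98.2 CPM in deficient PBS libraries. The intact ones had 83.3, 83.7 and 82.3 CPM under AA, against 100.9, 95.8 and 99.5 CPM under PBS. The deficient AA libraries lie far below all others. Its log2 change was -0.84 in deficient cells (SE 0.0468, edgeR adjusted p = 5.02e-13) and -0.25 in intact cells (SE 0.0442, adjusted p = 3.96e-05). Once the length trend was removed it was -0.51 (adjusted p = 6.38e-10) in deficient cells and 0.00, not called (adjusted p = 0.932), in intact cells. The changes differed by -0.59 (95% interval -0.73 to -0.46, adjusted p = 1.63e-07), a difference that was called under all 24 alternatives, as were those of MT1E, MT2A and SLC30A1.

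Exporter and importer were also set against each other within each library. The ratio of SLC30A1 to SLC39A10 CPM within a library was 3.15, 3.1 and 2.74 in deficient AA, against 1.99, 2.11 and 2.03 in deficient PBS. In intact cells it was 1.5, 1.51 and 1.44 under AA, against 1.89, 1.94 and 1.83 under PBS. The ratio was thus higher under AA in deficient cells and lower under AA in intact cells, with no overlap in either. It restates the levels of the 2 genes given above and is no separate result. No test was run on it.

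**Figure D2:**
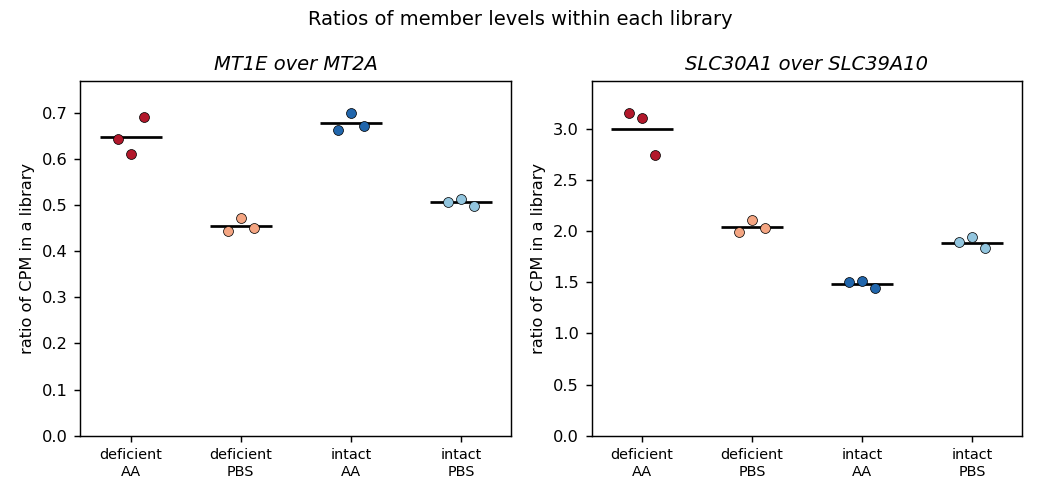
Ratio of CPM between 2 genes within each library: MT1E over MT2A at left and SLC30A1 over SLC39A10 at right. Points are libraries and lines group means, 3 libraries per group. MT1E over MT2A is above its PBS level under AA in both genotypes, while SLC30A1 over SLC39A10 averages 3.0 in deficient AA, against 2.04 in deficient PBS, and 1.49 in intact AA, against 1.89 in intact PBS libraries.

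The counts over the tested genes have to be read against how much changed in all. Under AA in deficient cells 5 of the 6 were called, 2 up and 3 down, where 74.4% of all 12718 genes tested were called (37% up, 37.4% down). In intact cells 5 of 6 were called, 1 up and 4 down, where 69.8% of all genes were (34.5% up, 35.2% down). For the difference 5 of 6 were called, 3 up and 2 down, with 44.6% of all genes called (21.6% up, 23% down). The first 2 of these shares are near the background. The count for the difference is of 6 genes chosen with earlier results of these data known, and its MTF1 call held under 15 of 24 alternatives. It was not tested against the background. The median log2 change of the 6 was -0.33 in deficient and -0.2 in intact cells, beside 0.01 over all genes in both. In bulk RNA, less RNA of a gene per cell and fewer cells that express it cannot be told apart.

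**Figure D3:**
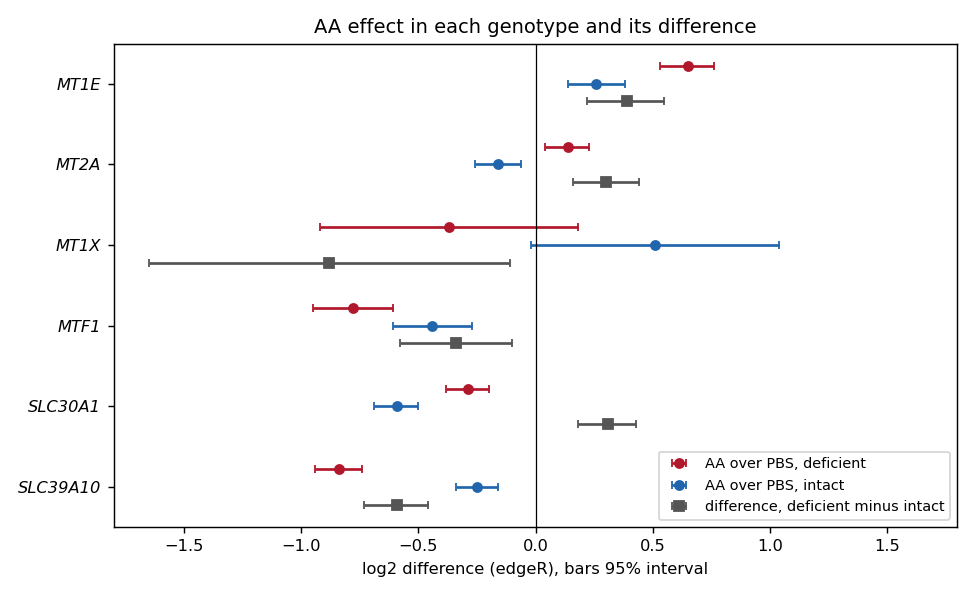
Log2 change under AA over PBS in deficient cells and in intact cells, and the difference between these changes (deficient minus intact), for the 6 tested genes. Points are edgeR estimates and bars 95% intervals. SLC39A10 (-0.84) and MTF1 (-0.78) moved furthest in deficient cells, and SLC30A1 (-0.59) in intact cells. Of the differences 5 of 6 were called after adjustment over all genes, where 44.6% of all genes tested were. That of MT1X was not called, although its unadjusted interval leaves out 0.

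Gene length moved with the AA changes. Effective length, taken from the ratio of the deposited counts to FPKM, was 401 bases for MT2A, 406 for MT1X and 687 for MT1E, and 5226 for SLC39A10, 5893 for SLC30A1 and 7937 for MTF1. The 71 tested genes under 500 bases had a median log2 change of 0.47 in deficient and 0.54 in intact cells, and the 1434 genes of 5000 to 8000 bases one of -0.38 and -0.30. MT2A and MT1X stood below the median of genes as short as they are in both genotypes, MT1X in intact cells (0.51) by little. For the difference between genotypes the same 2 classes had medians of -0.14 and -0.09.

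Removing the length trend, an alternative chosen after seeing the data, turned or ended some of the within-genotype results named above. Others stayed called in the same direction: MT1E (0.22), MTF1 (-0.27) and SLC39A10 (-0.51) in deficient cells, and MT2A (-0.74) and SLC30A1 (-0.3) in intact cells. In deficient cells MT2A became -0.33 and MT1X was called at -0.84 (adjusted p = 0.0049), and in intact cells MT1X was at -0.07 (adjusted p = 0.809). The differences between genotypes held their direction: 0.38 for MT1E (adjusted p = 0.00178), 0.41 for MT2A (0.000607), 0.39 for SLC30A1 (2.23e-06) and -0.51 for SLC39A10 (4.14e-07) were called, -0.23 for MTF1 (0.0939) and -0.77 for MT1X (0.0797) were not. The part of length in the changes within a genotype was not tested.

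**Figure D4:**
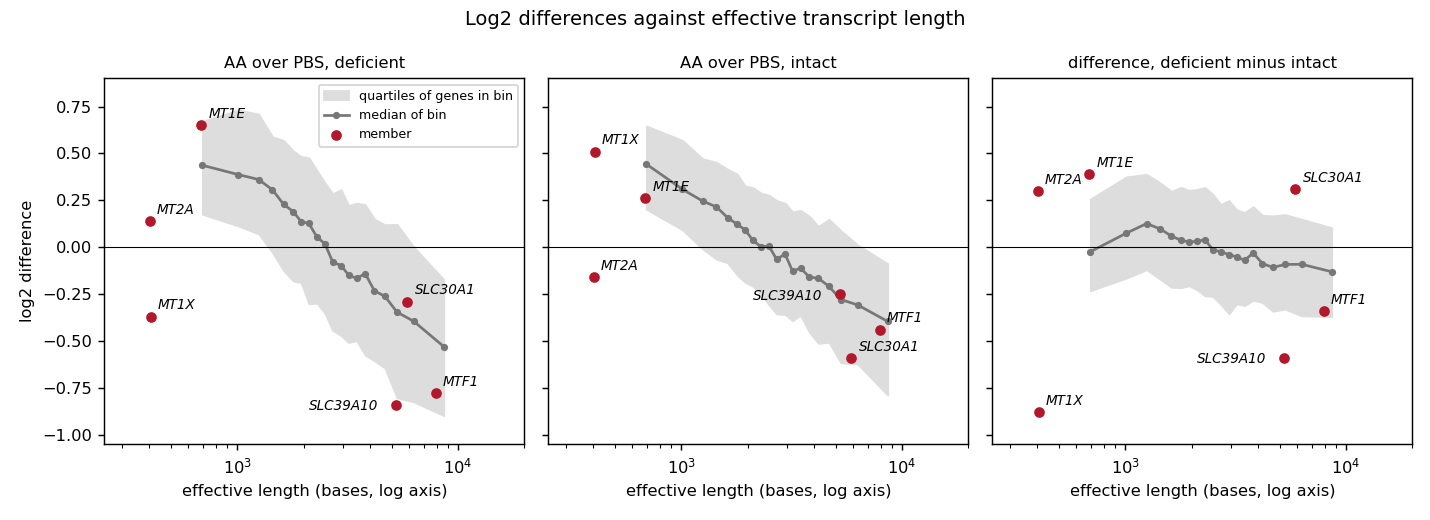
Log2 difference against effective transcript length (log axis) for AA over PBS in deficient cells, AA over PBS in intact cells and the difference between them. The grey line joins medians of bins of all tested genes, the band spans the quartiles of each bin, and red points are the 6 tested genes. Medians fall with length in both AA panels and little in the third, where SLC39A10 (-0.59) lies below the band and MT1E (0.39), MT2A (0.3) and SLC30A1 (0.31) at or above its upper edge or beyond its short end.

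Under AA the genotypes differed in most of these genes, and under PBS none passed. Compared under AA, deficient cells had more MT2A (log2 0.39, SE 0.0472, edgeR adjusted p = 3.69e-07), MT1E (0.32, SE 0.0537, adjusted p = 2.29e-05) and SLC30A1 (0.32, SE 0.0442, adjusted p = 1.89e-06), and less SLC39A10 (-0.69, SE 0.0467, adjusted p = 3.8e-11), than intact cells. MT1X was lower (-0.63, SE 0.256, adjusted p = 0.0393), but its libraries overlapped and it was called in 9 of 19 alternatives, with adjusted p from 0.00664 to 0.183. Leaving out deficient AA replicate 1 or 3, or intact AA replicate 1 or 3, each ended that call. MTF1 did not pass (-0.18, 95% interval -0.35 to 0.00, adjusted p = 0.0785), except without intact AA replicate 3 (-0.23, adjusted p = 0.0429) or with upper-quartile factors (-0.2, adjusted p = 0.0446), in a range of adjusted p from 0.0429 to 0.621. The 5 called of 6 tested, 3 up and 2 down, stand beside 59% of all genes called (28.7% up, 30.3% down). With the length trend removed the 5 were still called, at 0.43, 0.28, 0.43, -0.6 and -0.58 in the same order.

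Under PBS 0 of the 6 tested genes were called by edgeR, where 0.275% of all genes were (0.055% up, 0.22% down). At an unadjusted p under 0.05 there was 1, SLC39A10 (log2 -0.1, 95% interval -0.19 to -0.01, adjusted p = 0.527), and 0 were called under each of 25 alternatives, DESeq2 and limma among them. The intervals bound the difference at -0.01 to 0.19 for MT2A, -0.19 to 0.06 for MT1E, -0.07 to 0.11 for SLC30A1 and 0.00 to 0.32 for MTF1, with -0.3 to 0.8 for the low MT1X. The contrast under PBS and that under AA share no library, and the difference between them is the one tested above.

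Other zinc transporters give the setting of SLC30A1 and SLC39A10. Of 10 further exporters of the SLC30 family and TMEM163, 6 were tested. In deficient cells 1 rose and 2 fell under AA (median log2 -0.56), while in intact cells 1 rose and 1 fell (median 0.02). These medians include SLC30A3 and SLC30A4, named after their values were seen, which had group means under 1 CPM. Neither was called in deficient cells (log2 -1.02 and -0.67, edgeR adjusted p = 0.246 and 0.28), so the medians are a weak comparison of the genotypes. Over all genes 37% were called up and 37.4% down in deficient cells, and 34.5% up and 35.2% down in intact cells. SLC30A7, which loads zinc into the Golgi, fell in both genotypes, to 65.6 ± 1.04 CPM against 101.9 ± 2.39 CPM in deficient cells (log2 -0.64, SE 0.0378, edgeR adjusted p = 1.55e-12) and to 63.0 ± 0.751 CPM against 105.7 ± 0.157 CPM in intact cells (-0.75, SE 0.0379, adjusted p = 2.09e-13). SLC30A5, another exporter of the early secretory pathway, fell in deficient cells to 70.1 ± 2.57 CPM, against 97.6 ± 3.4 CPM under PBS (-0.48, adjusted p = 1.13e-09). In intact cells its log2 difference was -0.08 (adjusted p = 0.0942), and the changes differed (-0.4, adjusted p = 1.04e-05). The rises, in SLC30A6 (0.14) in deficient and SLC30A9 (0.15) in intact cells, were small. With the length trend removed each was called up in both genotypes, SLC30A6 at 0.39 in deficient and 0.31 in intact cells and SLC30A9 at 0.28 in either. SLC30A2, SLC30A8, SLC30A10 and TMEM163 did not pass the low-count filter.

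Of 13 further importers of the SLC39 family 10 were tested. In deficient cells 2 rose and 4 fell (median log2 -0.08), and in intact cells 1 rose and 6 fell (median -0.17), beside the same shares of 37% up and 37.4% down, and 34.5% up and 35.2% down, over all genes. SLC39A7, which releases zinc from the endoplasmic reticulum, fell to 234.3 ± 5.48 CPM in deficient AA, against 331.3 ± 9.79 CPM in deficient PBS cells (log2 -0.5, edgeR adjusted p = 1.67e-12), and to 295.0 ± 3.12 CPM in intact AA, against 322.7 ± 0.629 CPM in intact PBS cells (-0.13, adjusted p = 0.000556). The 2 changes differed by -0.37 (adjusted p = 3.08e-07). SLC39A9, an importer of the Golgi, likewise fell in both (-0.55 and -0.29, difference -0.26, adjusted p = 0.00784). SLC39A6, the partner of SLC39A10 in a heteromeric importer, fell by 0.32 in deficient cells (adjusted p = 1.01e-05) and by 0.20 in intact cells (adjusted p = 0.00134). SLC39A13, an importer of the early secretory pathway, fell by 0.51 and 0.58. With the length trend removed, the falls of SLC39A9 (-0.06, adjusted p = 0.28) and SLC39A6 (-0.09, adjusted p = 0.104) in intact cells were not called, and SLC30A7 fell by 0.12 in deficient and 0.34 in intact cells.

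SLC39A14, a plasma membrane importer of zinc and iron, went opposite ways. It stood at 342.9 ± 7.8 CPM in deficient AA, against 306.9 ± 12.7 CPM in deficient PBS cells (log2 0.16, SE 0.0325, edgeR adjusted p = 0.000141). Intact cells had 234.7 ± 4.18 CPM under AA, against 306.7 ± 6.2 CPM under PBS (-0.39, SE 0.033, adjusted p = 1.11e-09). The difference was 0.55 (SE 0.0463, adjusted p = 3.91e-09), and 0.61 with the length trend removed. SLC39A1 fell in intact cells (-0.22), with 0.04 in deficient cells and a difference of 0.26 (adjusted p = 3.24e-05). SLC39A4, the intestinal zinc importer, named after its values were seen, was low and rose in both genotypes (0.87 and 0.85). SLC39A2, SLC39A5 and SLC39A12 did not pass the filter.

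**Figure D5:**
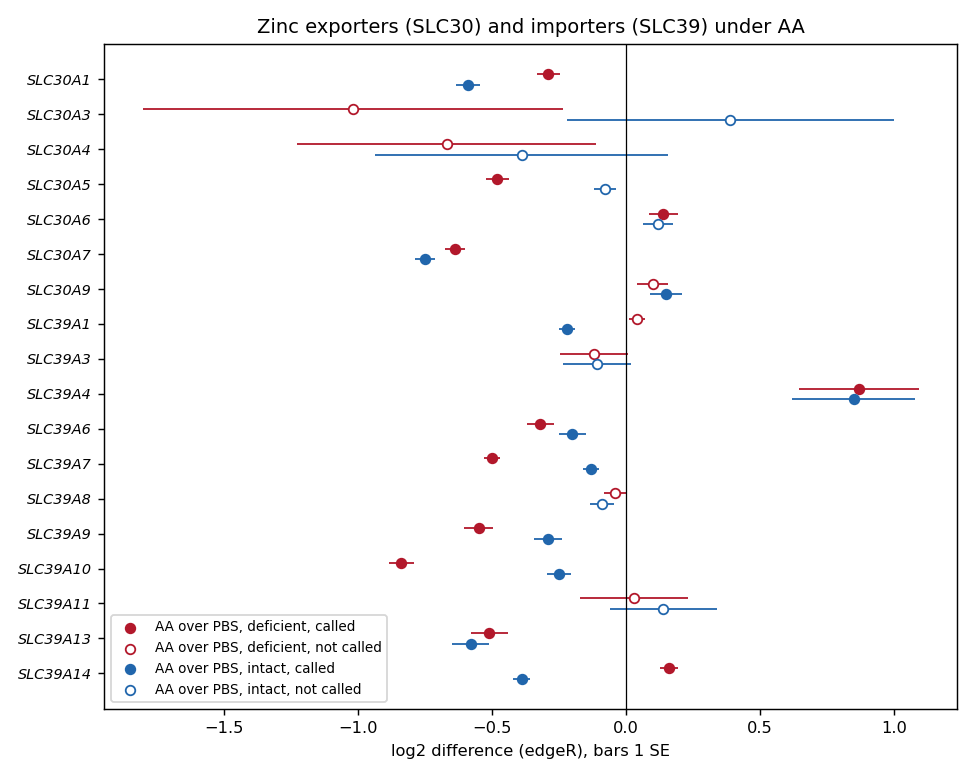
Log2 change under AA over PBS for SLC30A1, SLC39A10 and the other tested zinc exporters (SLC30) and importers (SLC39), in deficient and in intact cells. Bars are 1 SE, and filled points passed an edgeR adjusted p of 0.05. SLC39A10 (-0.84) is the lowest called point, SLC30A7 fell in both genotypes (-0.64 and -0.75), and SLC39A14 rose in deficient (0.16) and fell in intact cells (-0.39).

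Metallothioneins also bind copper, so copper handling genes were counted. All 9 were tested, and 1 rose and 1 fell in deficient cells, while 2 rose and 3 fell in intact cells (medians 0.03 and 0.04). Over the alternatives the counts in deficient cells ran from 1 to 4 up and from 0 to 5 down. The share of all genes called was 74.4% in deficient and 69.8% in intact cells. SLC31A1, the copper importer, stood at 68.1 ± 3.51 CPM in deficient AA, against 53.8 ± 2.17 CPM in deficient PBS cells (log2 0.34, edgeR adjusted p = 3.01e-06). Intact cells had 42.5 ± 0.957 CPM under AA, against 51.3 ± 1.79 CPM under PBS (-0.27, adjusted p = 0.000112). The difference was 0.61 (SE 0.0732, adjusted p = 6.31e-07), though the fall in intact cells was no longer called with the length trend removed (-0.05, adjusted p = 0.427). ATP7A, a copper exporter, rose in intact cells (0.46, adjusted p = 1.4e-06), had 0.06 in deficient cells (adjusted p = 0.38) and a difference of -0.39 (adjusted p = 0.00126). With the length trend removed its rise was called in deficient cells too (0.46). SCO1, which delivers copper to cytochrome oxidase, fell by 0.13 and 0.12.

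Of 4 genes tied to MTF1 in mouse, 3 were tested, and 1 rose and 1 fell in each genotype, a share near the 74.4% and 69.8% of all genes called. NDRG1, a stress-induced gene that hypoxia also raises, stood at 85.2 ± 5.63 CPM in deficient AA, against 68.9 ± 5.12 CPM in deficient PBS cells (log2 0.31, edgeR adjusted p = 0.000101). In intact cells it stood at 200.7 ± 10.3 CPM under AA, against 69.5 ± 5.0 CPM under PBS (1.53, adjusted p = 1.32e-15), and the changes differed by -1.22 (SE 0.0835, adjusted p = 1.31e-10). CSRP1, a LIM-domain protein of the cytoskeleton, fell in both (-0.24 and -0.53, difference 0.29, adjusted p = 6e-05). PGF did not pass the filter. Under PBS 0 of the 28 tested genes of these lists were called by edgeR, where 0.275% of all genes were. None had an unadjusted p under 0.05 or was called under any of 25 alternatives.

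The genes whose pattern over the 12 libraries was closest were taken by the root mean square difference of log2 CPM, each gene centred on its mean, among 9691 genes outside the 8 with a mean log2 CPM of at least 3. Closest to SLC30A1 were KMT5B (0.044), PHF10 (0.046) and ZNF664 (0.047), where the median gene was at 0.319. Among the closest to SLC39A10 were KAT2A (0.049) and the mitochondrial MT-CO1 (0.053), with a median of 0.405. Closest to MT2A were NME6 (0.059), PAQR5 (0.061) and PITHD1 (0.061), with a median of 0.265. For MT1X the nearest gene, SDF2, was at 0.233 and the median at 0.422.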

How the data were processed

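RNA sequencing libraries of A549 cells were grouped by the genotype and treatment in their labels, 3 per group. Per the submitters' processing notes, reads passed through software that included RSEM, StringTie 1.3.1, HISAT2 2.1.0, Bowtie2 2.2.8 and fastp 0.18.0. Which did what, on which genome build and with which strand setting, is not given in the sources used here. For 20323 genes the authors deposited estimated counts, of which 10.9 to 11.5% per library are not whole, and a second table of FPKM values.

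Counts were rounded and filtered by group at a minimum count of 10, which left 12718 genes. All 12 libraries entered 1 quasi-likelihood model in edgeR 4.0.16 (R 4.3.3) with TMM factors (0.987 to 1.033), and p-values were adjusted over all genes (Benjamini-Hochberg, called under 0.05) in each of 5 comparisons. CPM values are TMM-scaled, and a standard error is the log2 difference over the square root of F. Intervals and floors cover counting error and the spread between libraries as fitted. The steps were tested on simulated counts. The labels give no batch. Alternatives were DESeq2 1.42.0, limma 3.58.1 (voom, and log2 FPKM with a pseudocount of 1 or 0.1), other scalings and filters, a replicate block, the libraries of a comparison alone, leaving out each library, and, added after seeing the data, removal of the length trend. Replicate pairs differed beyond sampling noise (chi-square per degree of freedom 2.009 to 4.368).

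Genes named are the 8, STK11, up to 4 called genes of smallest p per list and comparison, and the 3 of closest pattern, of which not every one is reported here. The genes and lists were chosen with earlier results of these data known. GENCODE release 29 gave the positions, which may not be on the build the authors used.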

Additional observations from a re-analysis of the deposited data

Results flagged for a closer look

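The genes below are given because the change under AA differed between deficient and intact cells by a test of the difference itself (deficient minus intact, log2, edgeR adjusted p under 0.05, which 44.6% of all genes passed). Among the metallothioneins these were MT1E (0.39) and MT2A (0.3). The zinc sensor MTF1 (-0.34), the exporter SLC30A1 (0.31) and the importer SLC39A10 (-0.59) were the others among the 8 genes. The call for MTF1 held under 15 of 24 alternatives, and those for SLC30A1 and SLC39A10 under all 24. Of the other zinc transporters they were SLC30A5 (-0.4), SLC39A1 (0.26), SLC39A7 (-0.37), SLC39A9 (-0.26) and SLC39A14 (0.55). Of the copper genes they were SLC31A1 (0.61) and ATP7A (-0.39), and of the genes tied to MTF1 in mouse NDRG1 (-1.22) and CSRP1 (0.29).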

How the results depend on the processing

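Of 600 values of single genes under alternatives, 560 kept their direction and side of the threshold, 24 lost a call, 10 gained one and 6 changed sign. Leaving out a library of a group outside the comparison changed none of 144. With the length trend removed, MT2A (-0.33) and SLC30A1 (0.09) in deficient cells and MT1E (-0.16), MT1X (-0.07) and SLC39A10 (0.00) in intact cells changed sign. In that setting 3 of the 6 tested genes were called in intact cells, where 4244 of all 12718 genes were called up and 4016 down. SLC30A1 under PBS ranged from -0.03 to 0.06 over the left-out libraries. The count of all genes that differed by genotype under PBS, 35, became 111 with no filter, 56 with the length trend removed, and 5, 5 and 4 with limma on log2 FPKM (pseudocount 1, 0.1 and no filter), and 6 to 28 with 1 library of the compared groups left out. The cause was not tested. Library sizes without factors gave 3282 up and 2386 down for the difference, against 2747 and 2926. Same-numbered libraries did not deviate together (r from -0.094 to 0.054 over 18 pairs, in 2 of which the same-numbered library was the closest). With the replicate block 9402, 8776, 5554, 7402 and 32 genes were called in the 5 comparisons, and of the 6 genes MT1X under AA lost its call (-0.62, adjusted p = 0.0502). MT1X, at 2.28 to 4.2 CPM in intact AA libraries, has wide intervals, and MT1F and MT1G did not pass the low-count filter.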
